A study of Rattus norvegicus with 6 samples.

Results

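Histone genes were followed with and without serum in cultured rat nucleus pulposus cells, primary cells that come from the soft centre of the intervertebral disc. The genes were chosen by symbol, as rows starting with Hist1h, Hist2h, Hist3h, Hist4h, H1f, H2af or H3f, which gave 40 of the 17093 genes in each library. Of these, 29 carry Hist symbols and are called clustered or replicative here, and 11 are replacement variants. Testing required that 3 or more of the 6 libraries hold a gene at 1 or above, which 8 clustered genes and 10 variants met. All cells came from male rats and were used at passages 3 to 6 in DMEM-F12 medium with antibiotics. The serum-starved group (n = 3) spent 48 h without fetal bovine serum, and the control group (n = 3), labelled as untreated at 48 h, had the 10% serum of the growth medium. The treatment text without serum is attached to all 6 samples, so the groups rest on the titles and treatment labels. Ribosomal RNA was removed with probes before random-primed cDNA synthesis, and the protocol describes no poly(A) selection. The labels do not say whether replicates were separate cultures or animals. The p-values thus set the group difference only against the spread of these samples, which may be technical. Levels are deposited values treated as FPKM, that is, per transcript length, and are given as mean ± SD over 3 libraries.

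Histones are the proteins around which DNA is wound. H2A, H2B, H3 and H4 form the nucleosome core, and H1 binds the linker DNA between cores. Replicative histone genes sit in clusters, lack introns and are transcribed mainly in S phase, and their mRNAs end in a stem-loop in place of a poly(A) tail. Replacement variants are encoded elsewhere, by genes that give polyadenylated mRNA throughout the cell cycle and in resting cells. Some clustered genes can also give polyadenylated mRNA in cells that have stopped dividing.

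Values summed to 447788.3 to 473451.8 in serum-starved and 522165.0 to 530095.4 in control libraries, and the depth in reads is unknown. All 20 tested S phase marker genes were lower in serum-starved cells, and limma called 61.1% of 11493 tested genes. Of 13 matched nucleus pulposus markers, 10 had a group mean of at least 1, and the 13 summed to 620 to 681 in control and 317 to 332 in serum-starved libraries. The sum of 6 matched chondrocyte or annulus markers was 1821 to 2223 in control and 2892 to 2950 in serum-starved libraries. Most of this sum was Col1a1, with means of 1799 and 2697. Col1a1 and Mkx were called higher and Thbs4 lower, while 2 markers of this list were not called and 1 was not tested. Acan (aggrecan) was at 47.2 to 103 in control and 2.67 to 3.27 in serum-starved libraries, while Col2a1 did not exceed 0.06 and Krt18 was listed at 0 throughout. Of the 10 nucleus pulposus markers tested, 8 were called lower and 2 higher, the latter being Car3 (mean 1.03 in control and 26.1 in serum-starved libraries) and Pax1 (27.5 and 51.2). Summed leukocyte markers (6 matched) ran from 23.5 to 29.9 in control and from 10.7 to 14.3 in serum-starved libraries, with only Cd14 and Cd68 at a mean of 1 or more. Cd14 was called lower (mean 24.8 in control, 8.54 in serum-starved libraries) and Cd68 higher (1.96 and 3.38), while Adgre1 and Cd79a stayed at or under 0.05. Of 3 endothelial and 2 erythroid markers matched, 0 reached a mean of 1, with sums up to 1.19 and 0.06. The part of these marker differences in the results below was not tested, and fewer cells of a kind, fewer cells in S phase and less RNA per cell cannot be told apart in bulk RNA.

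In the deposited values, serum-starved cells held more RNA from a handful of clustered histone genes and less from 6 of 10 tested replacement variants. The linker histone gene Hist1h1c, the H2B gene Hist1h2bh, the H2A genes Hist2h2aa2 and Hist2h2aa3, the H4 gene Hist1h4b and Hist3h2a rose, while H2afz and H2afx fell most among the variants. Among the 8 tested clustered genes 6 were called higher and 2 lower, with a median log2 difference (serum-starved minus control) of 1.03. Without control replicate 1, 2 or 3, 6 of them could be tested, 0 were lower and the median was 1.48, 1.81 or 1.72. Among the 10 tested variants 0 were called higher and 6 lower, with a median of -0.33. These include H3f3c, a pseudogene in the reference table. The variant gene H3f3a, listed as LOC100361558 and so outside the symbol rule, was called higher. Over all tested genes, limma called 31.7% higher and 29.4% lower, with a median of 0.03. A call means an adjusted p (Benjamini-Hochberg, over all tested genes) no higher than 0.05, and differences are on the log2(value + 1) scale, which understates the change of low genes. Of the clustered genes, 3 passed through 1 group alone and therefore had to differ. They were Hist2h2aa3, through the serum-starved libraries, and Hist1h2bk and Hist1h2ail1, through the controls. The other 5 clustered genes were at 1 or more in all 6 libraries, and all 5 were called higher, against 30.9% of the 10512 genes with such values. The groups did not overlap for all 8 tested clustered genes and for 6 of 10 variants, against 68.2% of all tested genes. With every library scaled to the same total, limma called 5303 genes higher and 2327 lower, against 3640 and 3384 as deposited. On that scale 3 of the 10 tested variants were called lower.

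**Figure D1:**
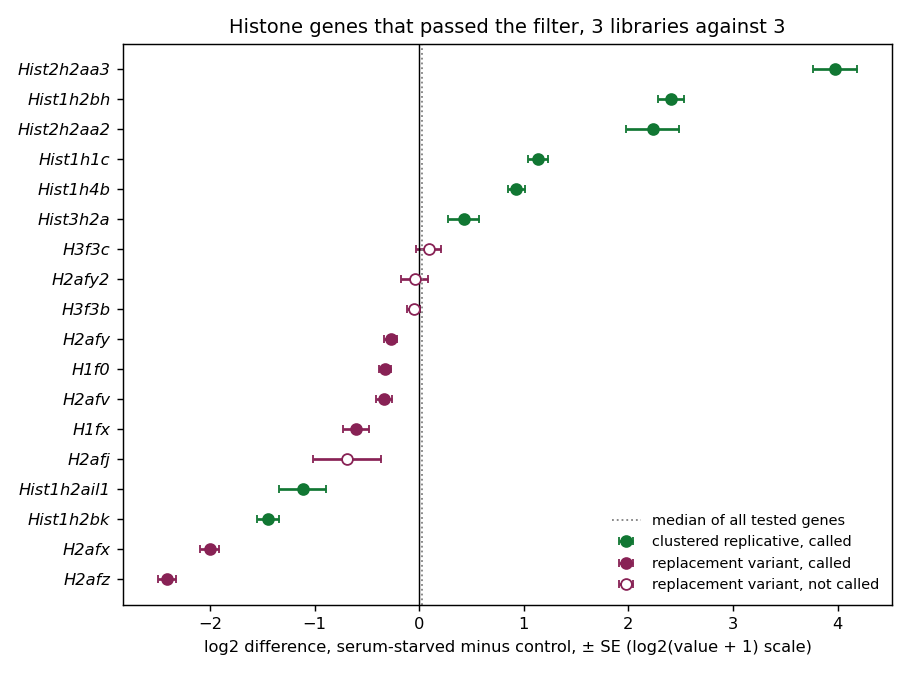
Log2 difference (serum-starved minus control, log2(value + 1) scale) with its standard error for the 18 histone genes that passed the filter, filled where limma called the gene. Clustered genes occupy the top of the plot from Hist2h2aa3 to Hist3h2a, and Hist1h2ail1, Hist1h2bk, H2afx and H2afz lie at the bottom.

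Hist1h1c encodes the linker histone H1.2, named H1f2 in the reference table, and was the most abundant clustered gene in every library. Its values were 57.85, 73.73 and 62.25 in control libraries and 139.85, 136.39 and 152.51 in serum-starved ones. The groups did not overlap, and the mean was 2.21-fold higher in serum-starved cells (log2 difference 1.14 ± 0.09 SE, limma, Benjamini-Hochberg adjusted p = 2.30e-05). This 1 gene made up 66.3 to 67.1% of the clustered sum in controls and 52.3 to 57.2% in serum-starved libraries.

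Hist1h2bh, named Hist1h2bq in the reference table, is an H2B gene and changed more. Control libraries held it at 7.49, 9.70 and 7.05 and serum-starved libraries at 41.02, 50.82 and 49.29. All serum-starved values lay above all controls, a 5.82-fold difference in the means (log2 difference 2.41 ± 0.12 SE, limma, Benjamini-Hochberg adjusted p = 1.63e-06). It was the main H2B transcript measured: all clustered H2B genes summed to 10.6 ± 1.72 in controls and 47.7 ± 5.51 with serum starvation (n = 3 each).

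Hist2h2aa2 and Hist2h2aa3 encode H2A and lie next to each other in the reference table. Hist2h2aa2 was at 3.50, 8.01 and 8.48 in control libraries, and control replicate 1 was the lowest of them. In serum-starved libraries it was at 29.95, 34.35 and 35.62 (log2 difference 2.23 ± 0.25 SE, limma, Benjamini-Hochberg adjusted p = 0.000126). For Hist2h2aa3 every control library is listed at 0, and the serum-starved libraries held 17.86, 18.54 and 9.59, with the lowest value in replicate 3. An exact 0 can be a failed estimate, so no fold is given. Their 300-base start regions share an identical run of 271 bases, most of it before the annotated start. The transcripts themselves were not compared. If these are also alike, reads could be divided between the 2 genes in an unknown way, so each value alone is uncertain. If the transcripts are equally long, which was not checked, the sum of both does not depend on that division. This sum was 3.50, 8.01 and 8.48 in control and 47.81, 52.89 and 45.21 in serum-starved libraries. Its mean was 7.30-fold higher, against 5.00-fold for Hist2h2aa2 alone. Hist2h2aa3 passed the filter through the serum-starved libraries alone and entered the control sums as 0. The larger fold of the sum thus had to follow and adds no support. Fitted as 1 row, an alternative added once the data had been seen, the sum gave a log2 difference of 2.77 ± 0.25 SE (limma, Benjamini-Hochberg adjusted p = 3.68e-05).

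Hist1h4b encodes histone H4, which like H2B has no replacement variant among these genes. It stood at 6.77, 6.44 and 6.66 in control and 13.12, 14.88 and 12.63 in serum-starved libraries, with tight and separate groups. The mean was 2.04-fold higher (log2 difference 0.93 ± 0.08 SE, limma, Benjamini-Hochberg adjusted p = 2.88e-05). Hist3h2a, an H2A gene of a small separate cluster, chosen for naming after seeing its values, was at 1.46, 2.43 and 2.55 in control and 3.37, 2.85 and 3.30 in serum-starved libraries. Its log2 difference was 0.42 ± 0.15 SE (limma, Benjamini-Hochberg adjusted p = 0.035). This call was lost without serum-starved replicate 1, serum-starved replicate 3 or control replicate 1 (limma, Benjamini-Hochberg adjusted p = 0.0959, 0.0967 and 0.072).

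**Figure D2:**
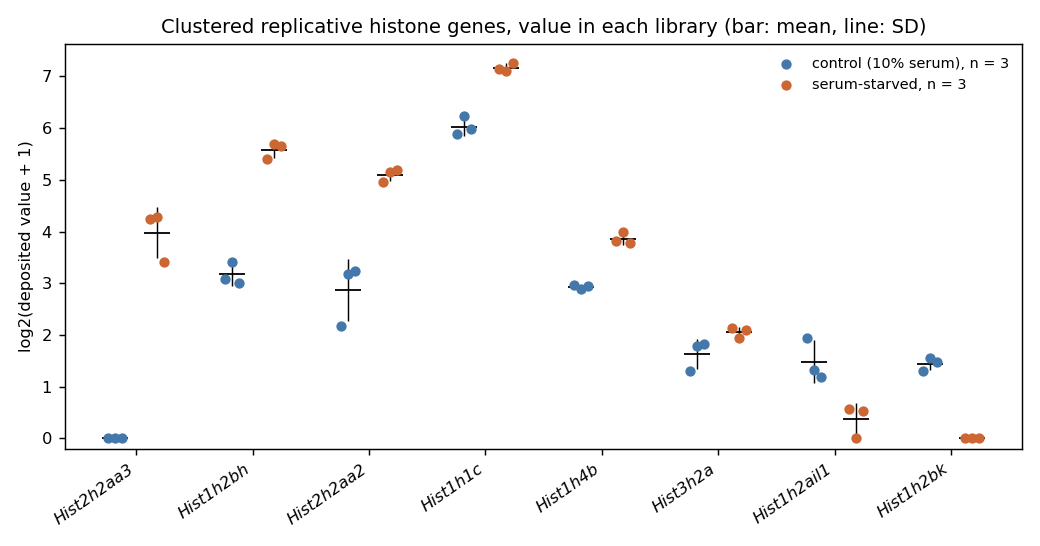
Deposited values of the 8 tested clustered histone genes, as log2(value + 1), in each of 3 control and 3 serum-starved libraries, with the group mean and SD. The groups are separate for each gene, and Hist2h2aa3 lies at 0 in controls while Hist1h2bk lies at 0 in serum-starved libraries.

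The 2 clustered genes called lower were near the floor. Hist1h2bk, an H2B gene named H2bc12 in the reference table, was at 1.48, 1.94 and 1.78 in control libraries and listed at 0 in all 3 serum-starved ones. LOC100365043, a row outside the symbol rule that the reference table names H2bc12l1, showed 2.28, 1.28 and 1.00 in controls and was also listed at 0 in serum-starved libraries. Both rows passed the filter through the controls alone, so their sum also had to be lower and adds no support. Summed into 1 row in the same way, the pair gave a log2 difference of -2.08 ± 0.11 SE (limma, Benjamini-Hochberg adjusted p = 2.18e-06). Hist1h4b and Hist1h2bk, which differ in direction, are neighbours in the reference table. Hist1h2ail1 was at 2.86, 1.51 and 1.27 in control and 0.49, 0 and 0.45 in serum-starved libraries (log2 difference -1.12 ± 0.23 SE, limma, Benjamini-Hochberg adjusted p = 0.00306). Neither of these genes could pass the filter when a control library was left out, so their calls rest on all 3 controls.

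The symbol of Hist1h2ail1 names H2A, and the reference table lists H3 histone among its synonyms. The 27 bases from an ATG in its RefSeq start region (assembly GRCr8) are shown because they bear on the class of this gene. Read from the best-matching ATG of each window, they shared 25 bases with the H3 gene Hist2h3c2 and 10 with the H3 variant gene H3f3b. Of 17 other H2A windows, 7 held an ATG that could be compared, and these shared 5 to 12 bases. The 6 H2B windows that could be compared shared 9 to 15, a range that holds the 10 of H3f3b. The start of Hist1h2ail1 thus matched an H3 gene best, against its symbol, and the rest of the gene was not compared. The H2A and H3 sums are therefore given with and without Hist1h2ail1. Capitals mark the ATG.
Hist1h2ail1: ATGgcccgtactaagcagaccgctcgc

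The other 21 clustered genes stayed below the filter, with no value above 0.90 in any library. They include the H3 genes Hist1h3a and Hist2h3c2, the H4 genes Hist2h4 and Hist2h4a, the linker histone genes Hist1h1a, Hist1h1b, Hist1h1d and Hist1h1t, and most clustered H2A and H2B genes. Their summed value was 3.90 to 6.04 in control and 2.38 to 3.16 in serum-starved libraries. The mean was higher in control for 13 of them, higher in serum-starved cells for 6 and equal for 2, and 19 were listed at 0 in at least 1 library. The groups did not overlap for 5 of them, against 24.6% of the genes below the filter. Hist2h2ac was listed at 0 in all 6 libraries. With no filter, 28 clustered genes had a value, 7 were called higher and 5 lower, and their median log2 difference was -0.10, so the median of the tested genes does not describe the clusters as a whole. The calls added without the filter were Hist1h1d and Hist2h2be, higher, and Hist1h2ai, Hist1h3a and Hist2h4, lower, all at values under 1.

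The start regions of the genes that moved are shown for their promoter motifs. Replicative histone promoters are known for TATA and CCAAT boxes, for the octamer ATTTGCAT that H2B promoters use, and, in H1 genes, for the box AAACACA. RefSeq start regions of the rat assembly GRCr8 (250 bases before and 50 after the annotated start) were found for 36 of the 40 genes by gene ID, and 7 motifs were searched on both strands. CCAAT stood in 24 of 26 clustered windows, 6 of 10 variant windows and 37.7% of all 27457 windows. TATAA stood in 24 of 26, 3 of 10 and 26.1%. ATTTGCAT stood in 9 of 26, 1 of 10 and 1.64%, and in 4 of 7 clustered H2B windows. AAACACA stood in 4 of 5 clustered H1 windows and 6.96% of all windows. The cell cycle element TTTGAA stood in 11 of 26, 3 of 10 and 18.1%. The E2F motif TTTCCCGC stood in 1 of 26, 0 of 10 and 1.03%, and TTTGGCGC in 0 of 26, 0 of 10 and 0.521%. No motif contains another, and a match is a description of letters, not of a bound factor.

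Below are the 140 bases just before the annotated start of 7 genes, from RefSeq GRCr8, 5′ to 3′ on the strand of the gene, with motif matches in capitals. Hist1h1c (chr17:41820454-41820593, minus strand), Hist1h2bh (chr17:41869342-41869481, minus), Hist1h4b (chr17:47176106-47176245, plus) and Hist2h2aa3 (chr2:186497131-186497270, plus) were higher in serum-starved cells. Hist1h2bk (chr17:47181941-47182080, minus) and H2afz (chr2:229028955-229029094, plus) were lower, and H3f3b (chr10:101757637-101757776, minus) did not pass the test. The H2B genes Hist1h2bh and Hist1h2bk differ in direction, and both hold a CCAAT box and the octamer in this stretch.
Hist1h1c: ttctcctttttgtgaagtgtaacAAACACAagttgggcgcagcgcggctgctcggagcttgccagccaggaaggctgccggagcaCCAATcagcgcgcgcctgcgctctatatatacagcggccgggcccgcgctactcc
Hist1h2bh: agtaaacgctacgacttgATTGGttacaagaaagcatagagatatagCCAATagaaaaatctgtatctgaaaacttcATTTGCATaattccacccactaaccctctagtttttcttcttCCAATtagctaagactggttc
Hist1h4b: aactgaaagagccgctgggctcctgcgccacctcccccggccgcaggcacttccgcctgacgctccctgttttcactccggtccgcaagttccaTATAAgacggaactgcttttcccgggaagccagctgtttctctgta
Hist2h2aa3: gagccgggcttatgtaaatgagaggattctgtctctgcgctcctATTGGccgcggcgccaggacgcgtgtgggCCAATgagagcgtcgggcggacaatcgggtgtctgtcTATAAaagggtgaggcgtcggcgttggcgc
Hist1h2bk: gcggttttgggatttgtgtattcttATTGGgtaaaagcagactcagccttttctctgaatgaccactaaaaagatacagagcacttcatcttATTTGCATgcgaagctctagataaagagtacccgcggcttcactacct
H2afz: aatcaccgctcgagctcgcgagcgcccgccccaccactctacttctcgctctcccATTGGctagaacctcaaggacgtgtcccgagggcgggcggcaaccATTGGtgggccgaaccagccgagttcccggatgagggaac
H3f3b: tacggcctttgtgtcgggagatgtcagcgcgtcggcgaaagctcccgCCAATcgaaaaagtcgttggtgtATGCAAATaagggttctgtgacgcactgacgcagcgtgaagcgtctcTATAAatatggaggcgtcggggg

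Among the replacement variants, H2afz and H2afx fell most. H2afz encodes H2A.Z.1, a variant placed at promoters and enhancers. Its values were 139.36, 128.15 and 115.61 in control and 23.13, 21.33 and 25.09 in serum-starved libraries. The groups were far apart, with a mean 5.51-fold lower in serum-starved cells (log2 difference -2.41 ± 0.09 SE, limma, Benjamini-Hochberg adjusted p = 2.63e-07). H2afv encodes the close relative H2A.Z.2 and moved little, from 32.03, 34.28 and 33.17 to 28.13, 23.79 and 26.21 (log2 difference -0.34 ± 0.08 SE, limma, Benjamini-Hochberg adjusted p = 0.00462). The level of H2afz was 3.49 to 4.35 times that of H2afv in each control library and 0.822 to 0.957 times in each serum-starved one, so the order of the pair turned in all 3.

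H2afx encodes H2A.X, which is phosphorylated at DNA breaks, and its gene is also read in S phase although it lies outside the clusters. It was at 60.50, 55.39 and 65.69 in control and 16.07, 13.38 and 13.59 in serum-starved libraries. That is 4.22-fold lower, with no overlap (log2 difference -2.0 ± 0.09 SE, limma, Benjamini-Hochberg adjusted p = 9.03e-07). H2afj, an H2A variant of mammals, varied within both groups, at 21.09, 24.14 and 13.66 in control and 18.57, 6.64 and 11.98 in serum-starved libraries. The groups overlapped, and limma gave a log2 difference of -0.69 ± 0.32 SE (Benjamini-Hochberg adjusted p = 0.095). Its adjusted p was 0.0164 without serum-starved replicate 1 and 0.0473 without control replicate 3 (limma, Benjamini-Hochberg).

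The macroH2A variants carry a large extra domain and are known from silent chromatin. H2afy (macroH2A1) was at 43.77, 46.33 and 45.17 in control and 37.17, 36.03 and 38.18 in serum-starved libraries, a small difference without overlap (log2 difference -0.27 ± 0.06 SE, limma, Benjamini-Hochberg adjusted p = 0.00406). H2afy2 (macroH2A2) was low in both groups, between 1.83 and 2.66, and did not pass the test (log2 difference -0.04 ± 0.13 SE).

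H1f0 encodes H1.0, the linker histone known for its build-up in cells that leave the cycle. Here it was lower in serum-starved cells, at 92.30, 86.91 and 92.11 against 117.52, 113.81 and 109.83 in controls (log2 difference -0.33 ± 0.06 SE, limma, Benjamini-Hochberg adjusted p = 0.00173). H1fx encodes H1.10 and was at 4.58, 5.16 and 6.40 in control and 2.84, 3.04 and 3.65 in serum-starved libraries (log2 difference -0.61 ± 0.13 SE, limma, Benjamini-Hochberg adjusted p = 0.00328). Hist1h1c stood at 0.492 to 0.648 times the level of H1f0 in control libraries and 1.52 to 1.66 times in serum-starved ones. The more abundant linker histone transcript was thus H1f0 in every control library and Hist1h1c in every serum-starved library. H1foo, the oocyte linker histone gene, was listed at 0 in 5 libraries and 0.06 in the other.

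With every library scaled to the same total, the median of all tested genes shifted to 0.20 and H1f0, H2afv and H2afy no longer passed (limma, Benjamini-Hochberg adjusted p = 0.0571, 0.07 and 0.224). Their log2 differences were then -0.14, -0.15 and -0.09, each below that median. H2afz, H2afx and H1fx passed under each of the 3 scalings tried.

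H3f3b encodes H3.3, the replacement H3, and was the most abundant member in every library. It was at 289.37, 287.82 and 266.23 in control and 270.79, 265.66 and 275.95 in serum-starved libraries. The groups overlapped, and no difference was shown (log2 difference -0.05 ± 0.06 SE, limma, Benjamini-Hochberg adjusted p = 0.485). H3f3c is a pseudogene in the reference table, so its values of 6.22 to 8.98 are uncertain and may hold reads of its parent genes. It did not pass the test (log2 difference 0.09 ± 0.12 SE).

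The other H3.3 gene, H3f3a, is present under the symbol LOC100361558, by its gene ID in the reference table, and so falls outside the symbol rule. It was named after its values were seen. Control libraries held it at 231.48, 254.03 and 245.31 and serum-starved libraries at 358.16, 322.82 and 342.65. It rose 1.40-fold without overlap (log2 difference 0.48 ± 0.07 SE, limma, Benjamini-Hochberg adjusted p = 0.000437). H3f3b exceeded it in each control library and was exceeded by it in each serum-starved one. Both genes encode the same protein, and together they held 525 ± 15.5 in controls and 612 ± 21.0 with serum starvation (n = 3 each).

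**Figure D3:**
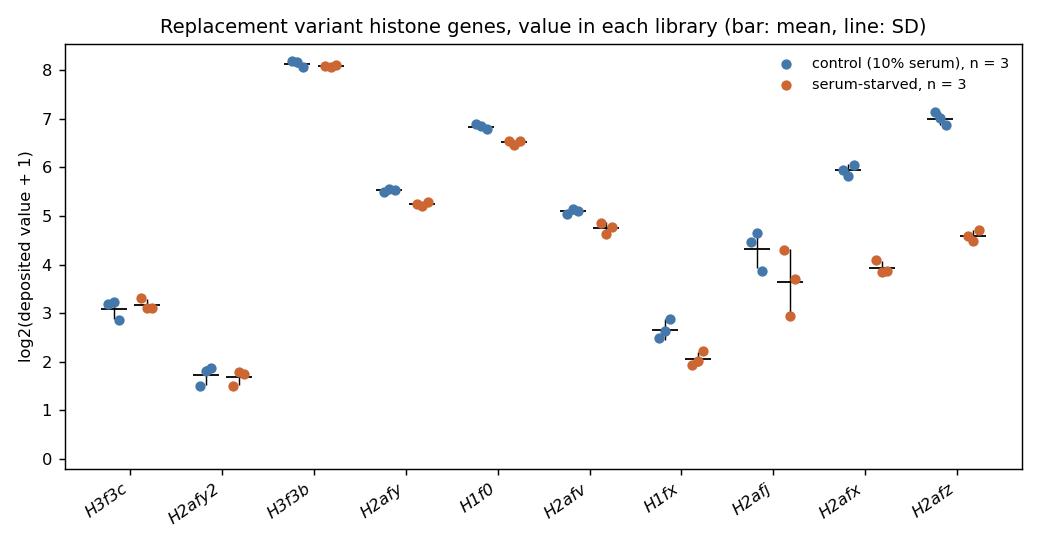
Deposited values of the 10 tested replacement variant genes, as log2(value + 1), in each of 3 control and 3 serum-starved libraries, with the group mean and SD. H2afz and H2afx show the widest gaps, whereas H3f3b, H3f3c, H2afy2 and H2afj overlap between the groups.

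Summed by kind, clustered genes held 96.9 ± 11.7 in control and 258 ± 9.45 in serum-starved libraries, and variants held 696 ± 28.0 and 488 ± 18.2 (n = 3 each). The summed value of all 40 genes was 793 ± 30.4 and 746 ± 18. The direction of this total depended on the scale: as a percent of the library total it was 0.145 to 0.154% in control and 0.158 to 0.167% in serum-starved libraries, and with LOC100361558 added it was 1037 ± 32.9 and 1087 ± 32.1. Variants made up 89.2, 86.5 and 87.6% of the sum in control replicates 1 to 3 and 66.8, 64.2 and 65.1% in the serum-starved ones. With LOC100361558 counted as a variant, an alternative also added later, the shares were 90.7 ± 0.94% and 76.2 ± 1.23%. Since the genes were chosen with results known, no test is given for these sums. The sums and shares describe deposited values, in which 21 of the 29 clustered genes stayed at 0.90 or below in every library, controls included. How fully the mRNAs of replicative genes were captured, or their reads assigned to the right gene, was not tested. The shares are thus no measure of the histone make-up of the cells.

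By class, clustered H2A genes summed to 13.0 ± 1.99 in control and 53.0 ± 3.31 in serum-starved libraries, and H2A variants to 288 ± 11.5 and 115 ± 10.8. Variants were 95.7% of the H2A sum in control and 68.4% in serum-starved cells. Without Hist1h2ail1 the clustered H2A sums were 11.1 ± 2.83 and 52.6 ± 3.56, and the variant shares 96.3% and 68.6%. In H1 the clustered sum was 65.3 ± 8.48 and 144 ± 8.43, and the variant share went from 64.7 ± 3.15% to 39.5 ± 0.93%. H4 had clustered genes only, at 7.19 ± 0.29 and 13.6 ± 1.31. In H3 the clustered genes were at 0.87 ± 0.56 and 0.31 ± 0.13, or 2.75 and 0.62 with Hist1h2ail1, beside 289 ± 14.1 and 279 ± 5.19 from the variants. The higher clustered sum in serum-starved cells thus held for H1, H2A, H2B and H4, with 3 libraries above all 3 controls in each, and not for H3. These sums rest on few genes. Hist1h1c, Hist1h2bh, Hist1h4b, Hist2h2aa2 and Hist2h2aa3 made up 88.7% of the clustered sum in control and 97.6% in serum-starved libraries. Hist1h2bk and Hist2h4 went the other way. Of the 21 clustered genes below the filter, all classes counted, 13 had the higher mean in control and 6 in serum-starved libraries.

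**Figure D4:**
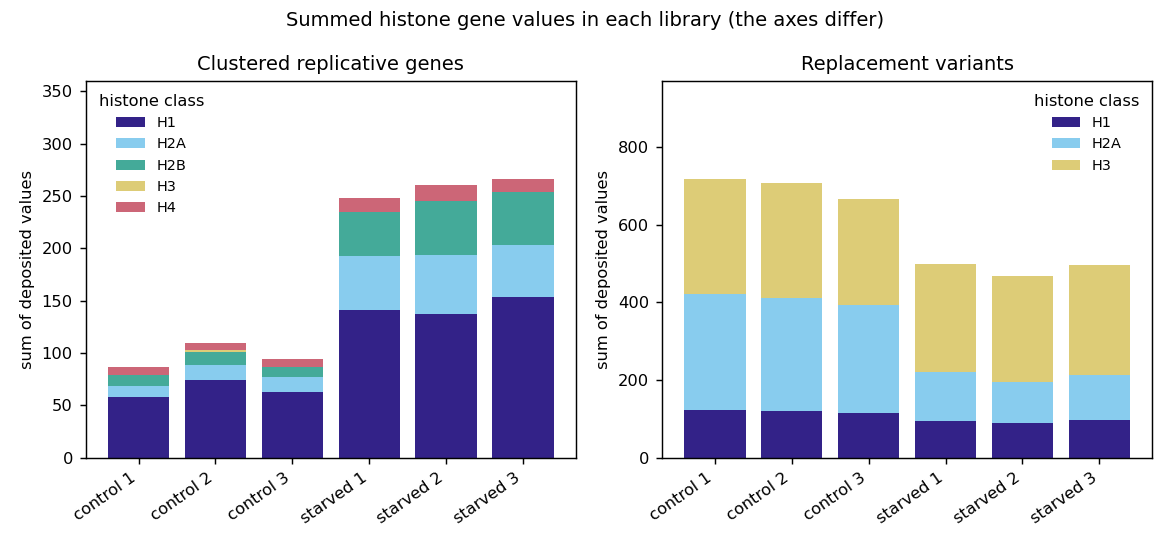
Sum of deposited values over all clustered genes (left) and all replacement variants (right) in each library, stacked by histone class, on axes that start at 0 and differ in scale. The clustered sum is 86.9 to 110 in controls and 248 to 267 in serum-starved libraries, and the variant sum is 665 to 718 and 467 to 500.

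Genes that make, process and carry histones were taken from lists chosen beside the histone genes, and are given as counts with no test of the list. Of 20 S phase markers all 20 were lower (median log2 difference -1.91), against 29.4% of tested genes. Cdc6 and Cdt1 passed the filter through the controls alone and so had to be lower, and with a control left out 18 were tested and 18 lower. Ribonucleotide reductase subunit Rrm2 was at 207 to 284 in control and 1.34 to 2.31 in serum-starved libraries, and cyclin A2 (Ccna2) at 49.6 to 65.8 and 0.94 to 1.91. Thymidine kinase Tk1 was 21.2-fold lower, and the replication helicase subunits Mcm5 and Mcm6 were 23.9-fold and 7.38-fold lower. The clustered genes that rose thus did so in the libraries in which these markers were low.

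Of 15 chaperones and other genes tied to placing new histones behind the replication fork, 12 were called lower and 0 higher (median -0.97). Over all tested genes, 29.4% were lower and 31.7% higher. This list shares Mcm2 with the S phase markers, so Mcm2 is counted as lower in both. Asf1b, Chaf1b, Mms22l and Tonsl passed the filter through the controls alone and so had to be lower, and of the other 11 genes 8 were lower. Without control replicate 1, 2 or 3 only 11 genes could be tested, 8 were lower and the median was -0.53, -0.59 or -0.54. Asf1b, which hands over H3 and H4, fell from 25.59, 19.10 and 21.01 to 0.57, 0.44 and 0.44, and its relative Asf1a did not pass the test (log2 difference 0.21). Chaf1b and Chaf1a, subunits of chromatin assembly factor CAF-1, fell 10.9-fold and 3.41-fold, Mms22l 12.8-fold and the histone chaperone Nasp 3.04-fold. Without serum-starved replicate 3, and with equal totals, 1 gene of this list was called higher. Of 22 replication-independent chaperones and remodellers 3 (13.6%) were higher, 9 (40.9%) lower and 10 not called (median -0.06), beside 31.7% and 29.4% of all tested genes, and 6 were higher with equal totals. Among genes that place H3.3, named partly after their values were seen, Hira, Cabin1 and Ubn1 of the HIRA complex did not pass, whereas Ubn2 of that complex rose 2.03-fold. Daxx did not pass, and its partner Atrx rose 1.69-fold. Anp32e, which removes H2A.Z, fell 1.91-fold, Ruvbl2, a subunit of H2A.Z-loading remodellers, 2.40-fold, Nap1l1 1.85-fold and Dek 1.65-fold.

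The centromeric H3 variant gene Cenpa, outside the symbol rule, fell from 13.55, 11.84 and 11.74 to 0.51, 0.27 and 0.27, 35.4-fold lower (log2 difference -3.31 ± 0.11 SE, limma, Benjamini-Hochberg adjusted p = 1.55e-07). Of 7 tested genes of the centromeric loading list, Cenpa included, 6 were called lower and 1 higher (median -1.94). Cenpa, Hjurp and Mis18a passed the filter through the controls alone and so had to be lower. The Cenpa chaperone Hjurp fell 19.97-fold, Cenpn 12.6-fold and Mis18a 22.3-fold. With control replicate 1, 2 or 3 left out, the other 4 genes could be tested, 3 were lower and the median was -0.84, -0.98 or -0.88.

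The regulators of histone mRNA were read against all tested genes, of which 31.7% were higher and 29.4% lower. Of 21 tested transcription and 3′ end processing genes, 7 (33.3%) were higher, 7 (33.3%) lower and 7 not called (median 0.02), and of the higher ones Pou2f1 passed the filter through the serum-starved libraries alone. Slbp, the protein that binds the stem-loop, fell from 25.37, 23.02 and 20.20 to 14.15, 13.48 and 13.35 (log2 difference -0.70 ± 0.09 SE, limma, Benjamini-Hochberg adjusted p = 0.000231). E2f1, a driver of S phase genes, fell 7.84-fold, Lsm11 of the U7 particle 1.86-fold, the nuclease gene Ints11 1.74-fold and Nelfe 1.63-fold. Among 12 tested histone mRNA decay genes, Slbp counted again, 4 (33.3%) were higher, 5 (41.7%) lower and 3 not called (median -0.09). Lsm4 fell 2.67-fold and Lsm7 1.49-fold. Eri1, the exonuclease of the stem-loop, fell 1.37-fold (adjusted p = 0.0157 by limma with Benjamini-Hochberg, up to 0.108 over the alternatives). Dcp2, the decapping enzyme, rose from 1.17, 0.72 and 0.30 to 1.64, 2.10 and 2.06. In this list 2 genes were higher without serum-starved replicate 2 or control replicate 2, and 3 were lower without serum-starved replicate 3 or with equal totals.

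**Figure D5:**
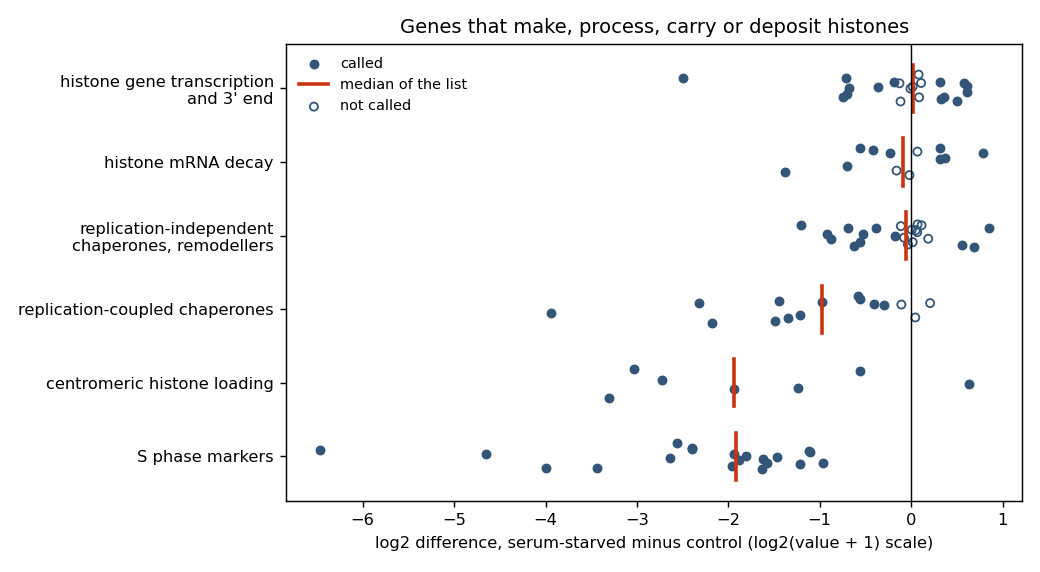
Log2 difference (serum-starved minus control, log2(value + 1) scale) of each tested gene of 6 lists, filled where limma called it, with the median of the list as a bar. All S phase markers lie left of 0, with a median of -1.91. Most centromeric loading factors and replication-coupled chaperones do too, with medians of -1.94 and -0.97. The 1 centromeric gene called higher and some genes of the chaperone list that were not called lie right of 0. The other 3 lists spread around 0.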

How the data were processed

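Gene values of 6 libraries (3 serum-starved, 3 control) were used as deposited. The submitters' processing notes name bcl2fastq 2.0, HISAT2, StringTie, DESeq2 and limma, with no order or role given here, and the mouse build mm10, although the deposited gene IDs are those of rat. The deposited values are treated as FPKM by their scale; the file headers name no unit, and values scaled as TPM on more genes would look alike. No read counts were used, so no counting interval is given, and the 3 libraries a group limit the precision.

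Gene IDs were matched to the RefSeq table of GRCr8 (15927 of 17093, and 39 of the 40 histone genes), used for names, neighbours and start regions only. Genes at 1 or more in at least 3 libraries were tested on log2(value + 1) with limma 3.58.1 (R 4.3.3, empirical Bayes with an intensity trend), all 6 libraries and no covariate, with Benjamini-Hochberg adjustment over 11493 genes at 0.05. The fit was tested on simulated data. Exact permutation of 3 against 3 libraries cannot go below p = 0.1 and was not used. The histone genes and lists were chosen with earlier results of these data known. Named were every tested variant, tested clustered genes with a group mean of at least 5 or called with an absolute log2 difference of at least 1, up to 5 called genes of each list by size of difference, Cenpa and Slbp; Hist3h2a, the H3.3-related and near-copy LOC genes, Asf1a, Hira, Cabin1, Ubn1, Daxx, Atrx, Tonsl, Cdc6, Cdt1, Pou2f1 and genes called only without the filter were named after their values were seen. A gene that the rule names is not reported here. Alternatives changed the pseudocount, filter, scaling, model and libraries. No 2 libraries shared more than 0.265% identical values.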

Additional observations from a re-analysis of the deposited data

How the results depend on the processing

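No result changed direction among those called. Of the 18 named histone genes, 13 had no changed call under any alternative in which they could be tested. Alternatives in which a gene failed the filter were left out of this count. That applied to Hist1h2bk and Hist1h2ail1 with the filter at 5 or a control left out. H1fx, H2afy2 and Hist3h2a also failed the filter at 5. The same held for Hist2h2aa3 with a serum-starved library left out. The median log2 difference of all tested genes was 0.0138 with no filter, -0.0106 with a filter at 5, 0.0097 with median-ratio scaling, 0.0653 with quantile normalization and 0.2012 with equal totals, and 0.0085 to 0.0424 with 1 library left out. For clustered genes, 5 were lower with no filter (median -0.1009) and 0 with a filter at 5 (median 2.2346). With 1 library left out, 0 to 2 were lower, 4 to 6 higher and the median was 0.864 to 1.8129; the 2 lower genes cannot pass the filter with 2 controls left, nor Hist2h2aa3 with 2 serum-starved libraries. For variants, the median was -0.2064 with quantile normalization and -0.1445 with equal totals, where 3 were lower. For the pathway lists together the median was -0.56 as reported, -0.3956 with quantile normalization, -0.3652 with equal totals and -0.591 to -0.3355 with 1 library left out. The variant share was 63.4392% in serum-starved and 80.1338% in control cells with H2afx among the clustered genes, 77.4514% and 94.8024% without H1, and 76.2192% and 90.666% with LOC100361558, the last added after seeing the data. H2afj passed with library weights (limma, Benjamini-Hochberg adjusted p = 0.01695), and Hist3h2a was lost with no filter (0.06822) and with quantile normalization (0.05426). Same-numbered libraries correlated at 0.037, -0.162 and 0.101 in their deviations from the group means, and differently numbered ones at -0.164 to 0.164. With 3 libraries a group, this cannot settle whether the numbers pair the samples. With the replicate block, 3508 genes were higher and 3293 lower, 6 clustered genes higher and 2 lower, 0 variants higher and 6 lower, and 15 list genes higher and 56 lower. Depth is unknown, which leaves the precision of values near 0 unknown.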
